A study of Rattus norvegicus with 6 samples.

Results

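The 9 proliferation and mitosis genes examined here were listed by identifier, not by measured values, but with earlier results of these data known. These genes serve dividing cells in copying and separating their chromosomes. They are Pcna (ENSRNOG00000021264), Top2a (ENSRNOG00000053047), Mki67 (ENSRNOG00000028137), Ccna2 (ENSRNOG00000015423), Cdk1 (ENSRNOG00000000632), Ccnb1 (ENSRNOG00000058539), Plk1 (ENSRNOG00000018815), Aurkb (ENSRNOG00000005659) and Cdc20 (ENSRNOG00000028415). All 9 were found among the 22250 genes of the count tables, and all 9 passed the filter on low counts, which kept 12596 genes. The count tables hold identifiers without names. The symbols were supplied with the list of members and were not checked against an annotation here.

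The libraries came from BRIN-BD11, a rat line made by electrofusing insulinoma cells (RINm5F) with islet cells of the NEDH strain, so it is a dividing, tumour-derived hybrid and not islet tissue. There were 3 control libraries (WT, no inhibitor) and 3 libraries from cells given MS-275 (entinostat), an inhibitor of class 1 histone deacetylases, at 5 µM for 16 h, all at passage 25. The labels place MS-275 in DMSO and the study's methods describe DMSO-treated controls, at a concentration that differs between these sources. Messenger RNA was sequenced and the reads on each gene were counted, with between 5230555 and 9172422 counts on genes per library. Markers of beta cells and of other cell types were not analysed here, because no table used here pairs their names with identifiers.

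A dividing cell first copies its DNA in S phase and then, after the gap called G2, separates the copies in mitosis. Genes of replication are as a rule transcribed from late G1 into S phase under E2F factors, whereas genes of G2 and mitosis peak later. Their promoters typically carry a CHR element (cell cycle genes homology region), a docking site of the MuvB core that serves as repressor in resting cells and as activator in G2, together with CCAAT boxes bound by NF-Y. RNA from a culture is a mean over its cells, so fewer cells in a phase and less RNA per cell cannot be told apart in these libraries.

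Promoter sequences are shown first, and whether their motifs bear on the RNA differences given below was not tested. Of the 9 genes, 8 were lower with MS-275, so any contrast with genes that were not lower rests on Pcna alone. RefSeq promoter windows on the rat build GRCr8 (the reads were counted on an older build) were matched by symbol for 7 members (Pcna, Top2a, Mki67, Cdk1, Ccnb1, Plk1 and Cdc20). Each window covers 250 bases before and 50 bases after a transcript start. The 170 bases before the start are printed for the 5 genes whose window begins at the outermost RefSeq start, 5′ to 3′ along the gene, with every match to the motifs searched in capitals.
Pcna (GRCr8 chr3:139955821-139955990, - strand): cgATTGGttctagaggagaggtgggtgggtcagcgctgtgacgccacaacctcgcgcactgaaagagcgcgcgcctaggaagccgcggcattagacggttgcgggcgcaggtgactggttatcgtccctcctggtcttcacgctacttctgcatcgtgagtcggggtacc
Top2a (GRCr8 chr10:84473094-84473263, - strand): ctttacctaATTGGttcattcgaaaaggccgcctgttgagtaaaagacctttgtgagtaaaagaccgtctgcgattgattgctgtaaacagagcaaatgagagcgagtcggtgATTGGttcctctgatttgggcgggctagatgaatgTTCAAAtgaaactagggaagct
Ccnb1 (GRCr8 chr2:33655226-33655395, - strand): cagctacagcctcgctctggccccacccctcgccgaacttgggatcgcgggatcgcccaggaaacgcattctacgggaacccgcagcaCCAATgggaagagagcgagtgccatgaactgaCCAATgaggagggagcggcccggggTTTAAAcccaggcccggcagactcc
Plk1 (GRCr8 chr1:186147488-186147657, + strand): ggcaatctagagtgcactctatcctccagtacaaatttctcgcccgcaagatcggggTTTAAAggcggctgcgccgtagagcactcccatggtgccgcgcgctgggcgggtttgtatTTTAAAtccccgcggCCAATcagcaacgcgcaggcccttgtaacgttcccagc
Cdc20 (GRCr8 chr5:137255800-137255969, - strand): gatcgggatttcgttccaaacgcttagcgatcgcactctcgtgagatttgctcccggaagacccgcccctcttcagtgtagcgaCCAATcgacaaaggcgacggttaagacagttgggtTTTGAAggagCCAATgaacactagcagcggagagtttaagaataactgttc

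The letters searched were TTTGAA and TTTAAA for the CHR, CCAAT for the NF-Y box, and TTTCCCGC, TTTGGCGC, TTTCGCGC and TTTGCCGC for E2F, on both strands, so that an inverted CCAAT is printed as ATTGG and an inverted TTTGAA as TTCAAA. A CHR match was present in 6 of the 7 windows, those of Top2a, Mki67, Cdk1, Ccnb1, Plk1 and Cdc20, and in 28.3% of all 33469 windows of the same length. The window of Pcna held no CHR match and a single inverted CCAAT, 168 bases before its start. In Top2a, Ccnb1 and Cdc20 the CHR match lay 22, 25 and 51 bases before the start, and in Plk1 there were 3, at 113 and 53 bases before it and 7 bases after it (positions are those of the first base of the match). CCAAT was present in 7 of 7 windows, against 37.5% of all windows, and at least 2 copies in 5 of the 7, against 11.2%. A CHR and a CCAAT match occurred together in 6 of the 7 windows and in 11.3% of all windows. The only E2F match was in Cdk1, 133 bases before its start, and 2.14% of all windows had one. In Mki67 the CHR match 99 bases before the start shares its last base with an inverted CCAAT. RefSeq also has a start 254 bases further upstream for Mki67 and 41 bases further upstream for Cdk1. Matches are letters and do not show that a factor was bound, and a missing match says only that these letters are not in this window.

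**Figure D1:**
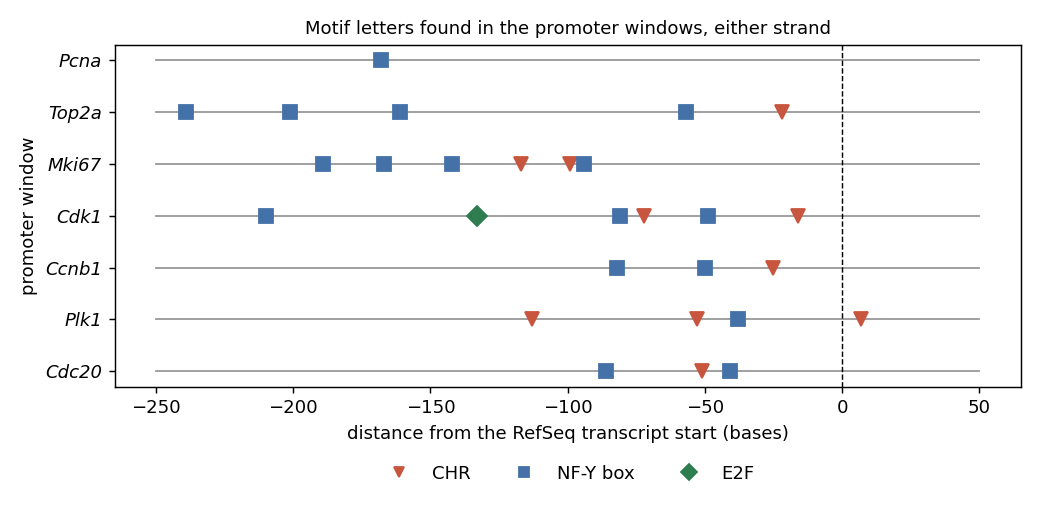
Position of each motif match in the 7 promoter windows, in bases from the RefSeq transcript start (dashed line), with 1 row per gene. Triangles are CHR matches, squares NF-Y boxes and the diamond an E2F match; 6 windows carry a CHR match and that of Pcna carries none.

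The comparison of MS-275 with WT asked how the division programme of the line differed upon inhibition of class 1 histone deacetylases. In the quasi-likelihood test of edgeR, with p-values adjusted by Benjamini-Hochberg over all tested genes, 8 of the 9 members were lower with MS-275 at an adjusted p under 0.05, against 31.5% of all tested genes called lower. Pcna was the 1 member called higher, against 32.1% of all tested genes. A log2 fold change of -1 or less was reached by 6 of the 9 members (Top2a, Ccna2, Ccnb1, Plk1, Aurkb and Cdc20), against 5.16% of all tested genes. In the 8 lower members every MS-275 library was below every WT library, a separation in that direction seen in 34.0% of all tested genes. The median log2 fold change was -1.60 over the members and -0.01 over all tested genes, and -0.61 over the 3966 genes called lower. Where a gene was tested alone in an exact permutation test over the libraries, two-sided p was 0.1 for each of the 9 members, the smallest that 3 libraries against 3 allow. The labels do not say that the replicates are separate cultures, so these p-values measure the spread between libraries, which may be technical.

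**Figure D2:**
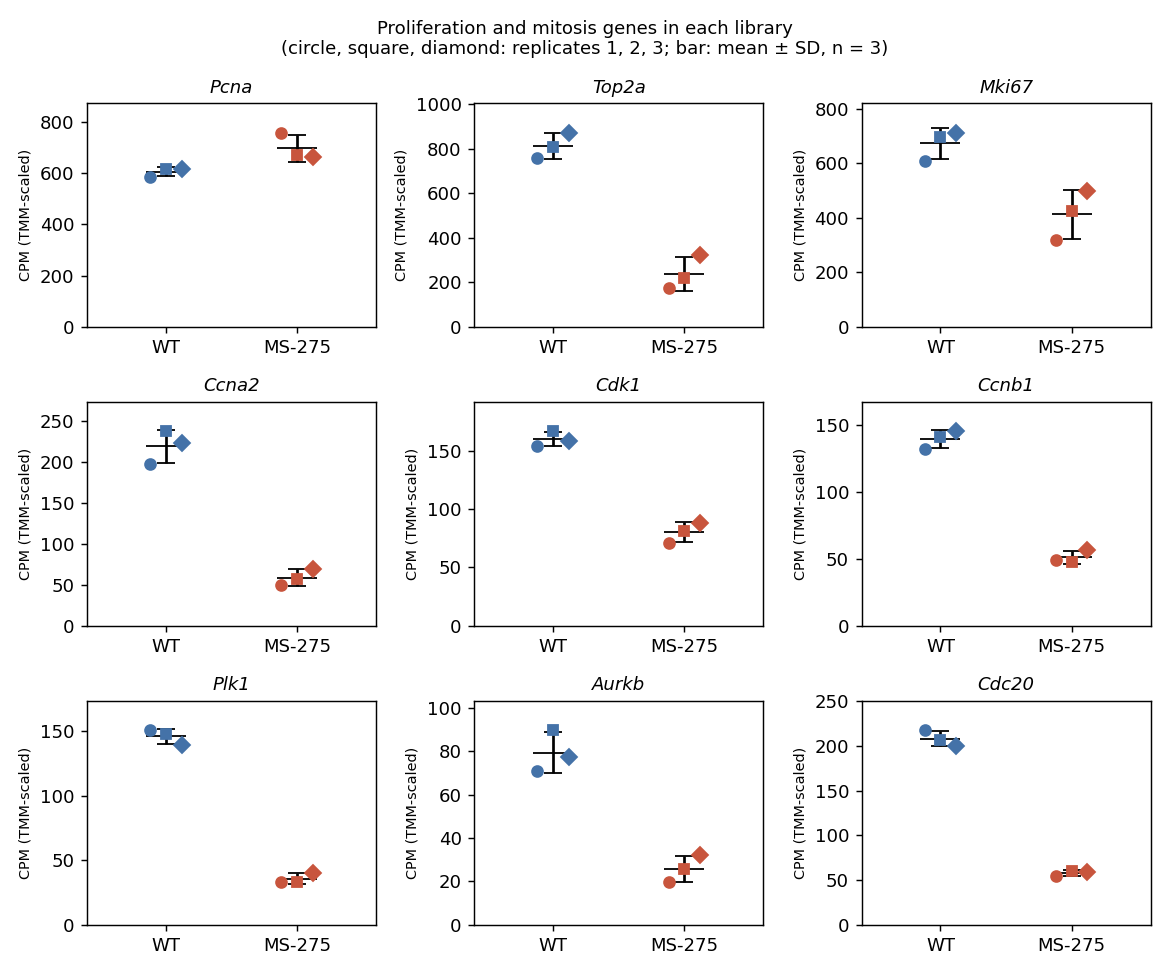
TMM-scaled CPM (read counts relative to library size) of each of the 9 genes in the 3 WT and 3 MS-275 libraries, with 1 point per library, bars for the mean ± SD (n = 3) and axes from 0. The groups are separate in every panel, with MS-275 lower in 8 panels and higher only for Pcna.

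Pcna encodes the sliding clamp that holds DNA polymerase on the template. It had 585, 616 and 618 CPM in WT replicates 1, 2 and 3, against 759, 673 and 663 CPM in the MS-275 replicates in the same order (CPM are counts relative to the library size after TMM scaling). The groups did not overlap, and the nearest libraries were WT replicate 3 and MS-275 replicate 3. The mean was 606 ± 18.7 CPM (SD, n = 3) in WT and 698 ± 52.8 CPM (SD, n = 3) with MS-275, a log2 fold change of 0.20 ± 0.08 (SE; edgeR, adjusted p = 0.0300). This call was lost under 7 of the 12 alternatives. It was lost when any 1 of WT replicates 1, 2 and 3 and MS-275 replicates 1 and 2 was left out (adjusted p between 0.0502 and 0.0800 from edgeR), without a low-count filter (adjusted p = 0.0527) and with library sizes in place of TMM (log2 fold change 0.14, adjusted p = 0.124), and the direction was the same in all 12. RefSeq lists 3 pseudogenes of Pcna, 1 of Cdk1 and 1 of Mki67 in GRCr8. Reads that align to more than 1 place are outside the gene counts, so reads that these genes share with such copies were not counted for them.

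Top2a encodes DNA topoisomerase II alpha, which untangles DNA during replication and parts sister chromatids in mitosis. It had 759, 806 and 873 CPM in WT replicates 1, 2 and 3, against 174, 218 and 324 CPM in the MS-275 replicates in the same order. Even the highest MS-275 library, replicate 3, stayed far below the lowest WT library. The log2 fold change was -1.76 ± 0.20 (SE; edgeR, adjusted p = 9.92e-05), or 3.39-fold lower, and only 0.548% of tested genes had a lower value. Pcna and Top2a, which both have a role in DNA replication, thus differed in direction, though Top2a also has a role in mitosis. Top2a had the widest spread of all members within the MS-275 group, with a coefficient of variation of 32.3% against 7.03% in WT, and without MS-275 replicate 3 its log2 fold change was -2.05.

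Mki67 encodes the Ki-67 protein, which coats mitotic chromosomes and is the common marker of cycling cells. It had 609, 695 and 712 CPM in WT replicates 1, 2 and 3, against 319, 424 and 498 CPM in the MS-275 replicates in the same order. It showed the smallest decrease of the 8 lower members, with a log2 fold change of -0.70 ± 0.13 (SE; edgeR, adjusted p = 0.000619), or 61.6% of the WT level. Leaving out 1 library at a time moved this between -0.86 and -0.54.

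Ccna2 encodes cyclin A2, which activates CDK2 in S phase and CDK1 in G2. Its values were 197, 237 and 223 CPM in WT replicates 1, 2 and 3, against 49.3, 57.5 and 69.8 CPM in the MS-275 replicates. The MS-275 level was 27.1% of the WT level, a log2 fold change of -1.88 ± 0.11 (SE; edgeR, adjusted p = 7.69e-09). Ccna2 ranked 46th from the lowest log2 fold change among the 12596 tested genes.

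Cdk1 and Ccnb1 encode the catalytic and the cyclin subunit of the kinase that drives entry into mitosis. Cdk1 had 154, 167 and 159 CPM in WT replicates 1, 2 and 3, against 71.3, 81.0 and 88.1 CPM in the MS-275 replicates in the same order. Its log2 fold change was -0.99 ± 0.09 (SE; edgeR, adjusted p = 1.77e-07), or 50.3% of the WT level. Ccnb1 had 132, 141 and 146 CPM in WT replicates 1, 2 and 3, against 49.0, 47.7 and 57.0 CPM in the MS-275 replicates in the same order. At 36.9% of the WT level, its log2 fold change was -1.44 ± 0.09 (SE; edgeR, adjusted p = 6.90e-09). Within libraries, the log2 ratio of Ccnb1 to Cdk1 fell by 0.45 with MS-275 (95% interval of the difference -0.66 to -0.24), without overlap between the groups (exact permutation p = 0.1, two-sided). RNA of the cyclin subunit was therefore lower relative to RNA of its kinase subunit in every MS-275 library than in any WT library. A separation in either direction was seen for 67.9% of all pairs of tested genes with no count of 0.

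Plk1 encodes Polo-like kinase 1, which acts in centrosome maturation, spindle assembly and cytokinesis. It had 151, 148 and 140 CPM in WT replicates 1, 2 and 3, against 33.1, 33.0 and 40.5 CPM in the MS-275 replicates in the same order. This was the largest decrease among the members, 4.08-fold, with a log2 fold change of -2.03 ± 0.10 (SE; edgeR, adjusted p = 4.38e-10) and rank 31 from the lowest among the 12596 tested genes. Aurkb encodes Aurora kinase B of the chromosomal passenger complex, which corrects the attachment of chromosomes to the spindle. It had the fewest reads of the 9 genes, with counts of 563, 729 and 447 in WT replicates 1, 2 and 3, against 106, 130 and 286 with MS-275. Scaled for depth, these were 70.8, 89.6 and 77.4 CPM in WT and 19.6, 25.5 and 32.0 CPM with MS-275. The decrease was 3.03-fold, a log2 fold change of -1.60 ± 0.15 (SE; edgeR, adjusted p = 5.15e-07).

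Cdc20 encodes the activator of the anaphase-promoting complex, whose activity ends mitosis. It had 217, 206 and 200 CPM in WT replicates 1, 2 and 3, against 54.1, 59.8 and 59.1 CPM in the MS-275 replicates in the same order. The MS-275 libraries lay closer together than for any other member, with a coefficient of variation of 5.40%. Its log2 fold change of -1.85 ± 0.08 (SE; edgeR, adjusted p = 2.27e-10) corresponds to a 3.60-fold decrease. The 5 members grouped as mitotic by their main role (Cdk1, Ccnb1, Plk1, Aurkb and Cdc20) were all called lower, against 31.5% of all tested genes. Their log2 fold changes ran from -2.03 to -0.99, with a median of -1.60.

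**Figure D3:**
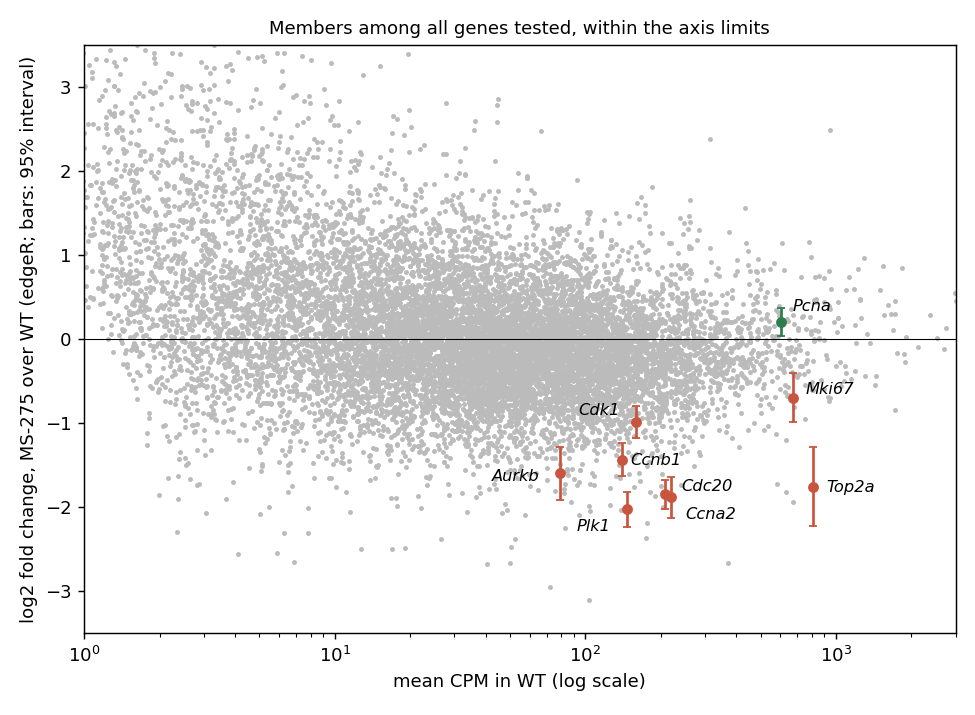
Log2 fold change of MS-275 over WT (y axis, edgeR) against the mean CPM in WT (x axis, log scale) for the 12163 of 12596 tested genes inside the axis limits (grey) and for the 9 members (coloured, bars for the 95% interval). Top2a lies at -1.76 among genes of high WT level, Plk1 is the lowest member at -2.03, and Pcna lies above 0 at 0.20.

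S phase was set against mitosis by the ratio of each gene to Pcna within the same library, which does not depend on how libraries are scaled. The size of such a ratio also reflects the length of the transcripts, so only its difference between groups is described. All 8 ratios were lower with MS-275, with no overlap between the groups (exact permutation p = 0.1 each, two-sided, the smallest possible), a separation in that direction seen for the ratio to Pcna of 44.9% of the other tested genes. This separation follows from the genes taken singly, since Pcna was higher in every MS-275 library and the other 8 genes were lower. The ratios therefore give the sizes of the differences and are no further test of them. The log2 ratio of Plk1 to Pcna was -1.95, -2.06 and -2.15 in WT replicates 1, 2 and 3, against -4.52, -4.35 and -4.03 in the MS-275 replicates. This difference of -2.25 (95% interval -2.67 to -1.82) was the largest. The log2 ratio of Mki67 to Pcna showed the smallest difference, -0.92 (95% interval -1.62 to -0.22). The ratios of Cdc20, Ccnb1, Cdk1 and Aurkb to Pcna differed by -2.05, -1.65, -1.20 and -1.85 on the log2 scale, and those of Ccna2 and Top2a by -2.11 and -2.02.

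The outcome of this comparison depended on the reference gene. Top2a acts in mitosis as well as in replication, so it does not stand for S phase alone. Its promoter window also held CHR and CCAAT matches, as did 11.3% of all windows, and whether these bear on its RNA was not tested. Relative to Top2a in place of Pcna, the log2 ratios of Mki67 and Cdk1 were higher with MS-275, by 1.09 (95% interval 0.80 to 1.39) and 0.81 (95% interval 0.29 to 1.34), without overlap between the groups. The difference for Ccnb1 was 0.36, and its 95% interval included 0 (-0.18 to 0.91) although the groups did not overlap. For Aurkb, Cdc20, Ccna2 and Plk1 the groups overlapped, with differences of 0.17 (95% interval -0.18 to 0.51), -0.037 (95% interval -0.73 to 0.66), -0.092 (95% interval -0.47 to 0.28) and -0.23 (95% interval -0.78 to 0.32). These intervals are wide and do not show that the 4 genes fell by the same factor as Top2a. Pcna was separate from each of the other 8 genes, whereas Top2a lay within the range of the mitotic genes.

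**Figure D4:**
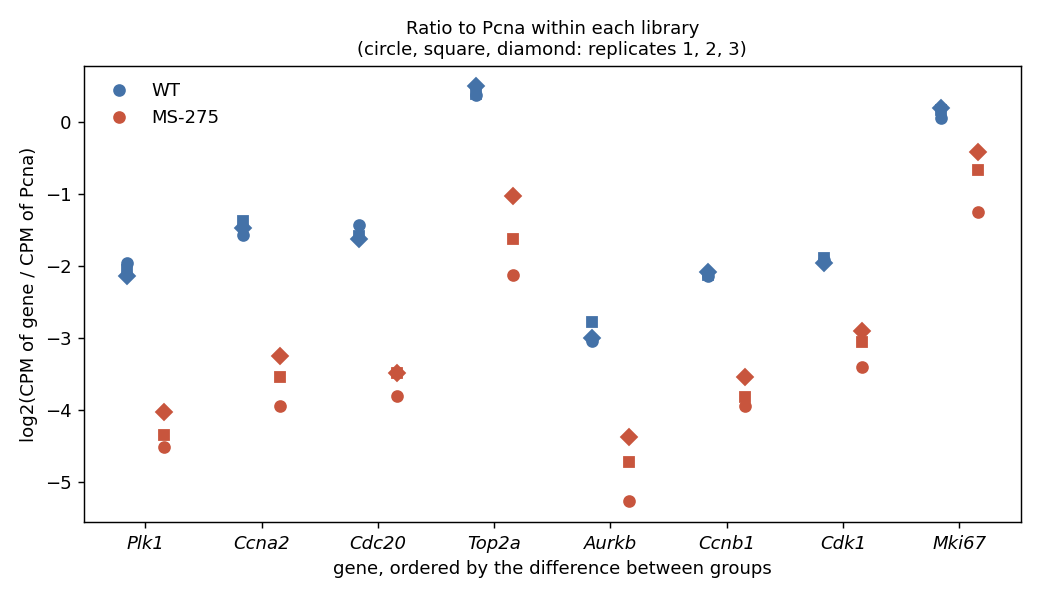
Log2 ratio of the CPM of each gene to the CPM of Pcna in the same library (y axis) for 8 genes ordered by the difference between groups (x axis), with WT in blue, MS-275 in red and 1 symbol per replicate. For every gene the MS-275 libraries lie below the WT libraries, from a difference of -2.25 for Plk1 to -0.92 for Mki67.

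From the largest decrease up, the order of the log2 fold changes was Plk1, Ccna2, Cdc20, Top2a, Aurkb, Ccnb1, Cdk1, Mki67 and Pcna. Among the 6 genes from Plk1 to Ccnb1, the within-library ratio of each to the next in the order overlapped between the groups, so neighbours were not separated beyond the spread of the libraries. The ends of this run, Plk1 and Ccnb1, were separate, with a difference of -0.60 (95% interval -0.81 to -0.39) on the log2 scale. Ccnb1 and Cdk1 were separate, as given above. Cdk1 and Mki67 overlapped, with a difference of -0.28 (95% interval -0.59 to 0.04) on the log2 scale. Mki67 and Pcna were separate. Of all 36 pairs of members, 26 (72.2%) had ratios without overlap between the groups, close to the 67.9% of all pairs among the 12501 tested genes with no count of 0, so the number of separate pairs is not particular to the members. The 5 mitotic genes had 7 of 10 pairs without overlap, also near that share, including Plk1 against Cdk1, whose log2 ratio fell by 1.05 (95% interval -1.26 to -0.83).

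Most of the lower members also varied together among the MS-275 libraries. MS-275 replicate 3 was the highest of its group for 7 of the 9 members, and replicate 1 the lowest for 6. How many of all tested genes show this order was not counted, so it is not shown to be particular to the members. The deviations of replicate 3 from the group mean in log2 CPM were 0.49 for Top2a, 0.34 for Aurkb and 0.29 for Mki67, against -0.41, -0.36 and -0.35 in replicate 1. Pcna went the other way, with -0.07 in replicate 3 and 0.12 in replicate 1. The deviations of Cdc20 were between -0.09 and 0.05 in all MS-275 libraries. The coefficient of variation was higher with MS-275 than in WT for 9 of the 9 members, and for 57.5% of all tested genes.

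MS-275 replicate 3 was also the deepest library and stood apart over other genes. For each gene, the shift of this library in log2 CPM was taken as a percentage of the distance from the other MS-275 libraries to WT. The median shift was 19.9% over the 774 genes lower by a log2 fold change of -1 or less in a fit without this library. Over 1783 higher genes it was 11.0%. Over the 8 lower members the shift was 19.5%. WT replicate 1 was shifted toward MS-275 by 10.1% and 15.4% over lower and higher genes and by 7.85% over these members. The farthest library over the members was MS-275 replicate 1, at -23.4% (away from WT), against -8.71% over 601 lower and -5.75% over 1720 higher genes. The part of depth in these shifts was not tested. Without MS-275 replicate 3, 8 members were called lower and 1 higher, as with all 6 libraries, and Mki67 had a log2 fold change of -0.86.

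Together the 9 genes held from 0.297% to 0.319% of all gene counts in the WT libraries and from 0.149% to 0.179% in the MS-275 libraries. Without Pcna, the other 8 held from 0.236% to 0.257% in WT and from 0.0752% to 0.114% with MS-275. In WT these were among the genes with more reads, since Top2a exceeded 99.3% of the tested genes in mean CPM and Aurkb exceeded 73.1%. CPM also reflects the length of the transcripts, so such shares rank genes by reads and not by RNA molecules. With MS-275, the corresponding shares were 94.2% and 42.2%, and Pcna stood above 98.8% of the tested genes in WT and 99.0% with MS-275.

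**Figure D5:**
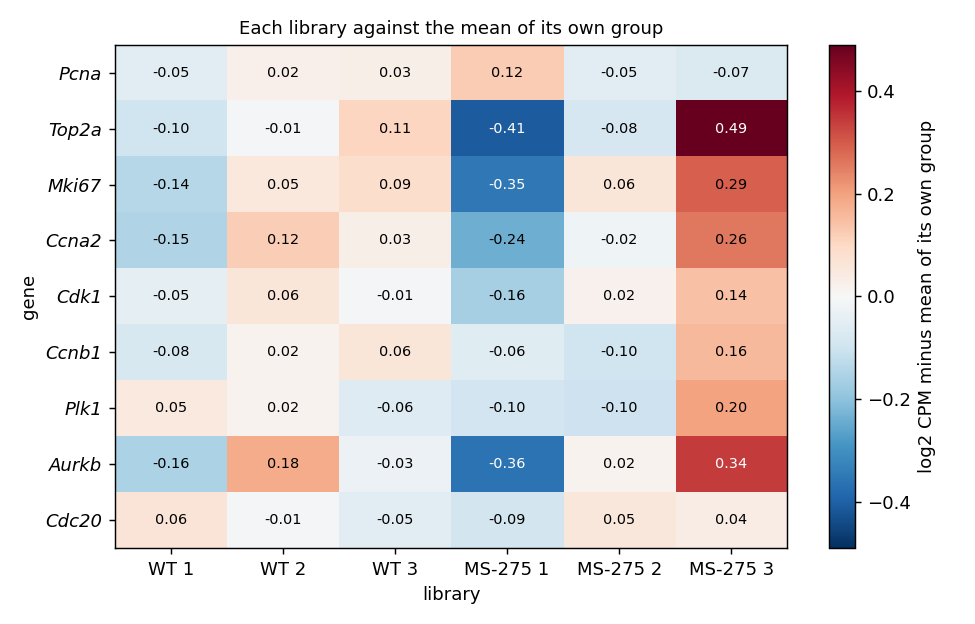
Log2 CPM of each gene in each library minus the mean of that library's own group (colour and printed value), with genes in rows and the 6 libraries in columns. MS-275 replicate 1 is below its group mean for 8 genes and replicate 3 above it for 8, with Pcna the exception in both, and the WT columns lie between -0.16 and 0.18.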

How the data were processed

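Each of the 6 libraries has a deposited table of raw counts on 22250 genes. According to the methods and the labels, the authors removed contaminating reads with bowtie2, trimmed with Trimmomatic, used STAR to align the rest to Rnor_6.0 and counted reads per gene. FeatureCounts is the counter named in the methods, but each table closes with 5 summary lines as htseq-count writes them. Those lines name no gene, held between 68.6% and 70.8% of the total in a table and were left out. Strandedness is not given in the sources used here. The authors' own table of fold changes and p-values was not used.

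Genes were kept with filterByExpr, scaled by TMM and tested with the quasi-likelihood test of edgeR 4.0.16 in R 4.3.3, without a block, calling at an adjusted p (Benjamini-Hochberg) under 0.05. The standard error is the log2 fold change divided by the square root of F. Intervals of ratios use the pooled SD of the libraries.

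The members, roles and alternatives were chosen with earlier results of these data known. The rule for named genes was to name all 9 members. Other cell cycle genes, marker genes and genes of like pattern were not analysed here, since the RefSeq gene table used here (GRCr8) pairs 0 identifiers of the count tables with a symbol. Alternatives were other scalings, DESeq2 1.42.0, other filters, a replicate block, each library left out, other thresholds and Top2a as reference.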

Additional observations from a re-analysis of the deposited data

How the results depend on the processing

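The 8 lower members were called lower under all 12 alternatives of scaling, test, filter, block and library set, and the count was also 8 at an adjusted p under 0.01 and 6 with a log2 fold change of -1 or less. Among all tested genes, the number called lower under these 12 ranged from 3287 (upper-quartile scaling) to 4451 (library sizes without TMM), of 12596 in both. Of 108 fold changes of members under an alternative, 101 kept their direction and side of the threshold, and the other 7 were those of Pcna. Its log2 fold change was 0.14 with library sizes in place of TMM and 0.18 without a low-count filter, where 0 members were called higher, and it was between 0.15 and 0.24 with each library left out, where between 0 and 1 member was called higher. The cause of these losses was not tested. Relative to Top2a in place of Pcna, the log2 ratios of Mki67 and Cdk1 differed by 1.09 and 0.81, a reversed direction. The values of Ccnb1 (0.36, 95% interval -0.18 to 0.91) and Aurkb (0.17, 95% interval -0.18 to 0.51) also changed sign, but their intervals include 0, so a reversal is not shown for them. Those of Ccna2, Plk1 and Cdc20 were -0.092, -0.23 and -0.037, with intervals that include 0. The change follows from the reference, since relative to Pcna the log2 value of Top2a fell by 2.02.

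Correlations of deviations between same-numbered libraries were 0.16, -0.02 and 0.13 for numbers 1, 2 and 3. Among the members, replicate 1 was the lowest of its group for 7 in WT and for 6 with MS-275. It was the highest for 2 in WT and for 1 with MS-275. Replicate 3 was the highest for 4 in WT and for 7 with MS-275, and the lowest for 2 and 1. Whether same-numbered libraries share more than a number was not tested. With the replicate block 8 members were called lower and 1 higher, as without it. The SE of the log2 fold change (edgeR) was smaller with the block for Top2a (0.10 against 0.20) and Mki67 (0.08 against 0.13). It was also smaller for Aurkb (0.12 against 0.15), Ccna2, Cdk1 and Ccnb1. For Pcna, Plk1 and Cdc20 the SE was slightly larger with the block. Every member had at least 106 counts in every library, so none was near the limit of detection at this depth, and with 3 libraries per group no exact permutation test can fall below 0.1.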
